A study of Drosophila melanogaster with 3 samples.

Results

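Peaks of tagged CG3995 at divergent protein-coding promoters were examined, that is, at places where a gene on each DNA strand starts close to the same peak. A peak was included when its summit lay within 500 bp of annotated starts of protein-coding genes on both strands, and 1250 of the 4260 thresholded peaks met this rule (29.3%, Wilson 95% interval 28.0 to 30.7%). Of the rest, 1864 summits had protein-coding starts on 1 strand only, and 1146 had none. These classes are called two-strand and one-strand peaks below.

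The data came from chromatin immunoprecipitation and sequencing (ChIP-seq) of whole Drosophila melanogaster embryos of both sexes, aged 0 to 24 hours. All embryos came from the transgenic strain CG3995-GFP, in which CG3995 (named bdwf in the annotation) carries green fluorescent protein at its C terminus, and an anti-GFP antibody was used on sonicated chromatin. The 3 libraries were biological replicates of this single group, and no second condition was examined. A control library used by the authors in peak calling was not analysed here, so a peak does not separate the tagged protein from general recovery of open promoters, and "bound" means only that a thresholded summit lay within 500 bp of a start. The labels do not state which promoter drives the transgene, how many embryos were pooled or in which tissues the protein is made.

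The fly genome is compact, and many of its genes start back to back with a neighbour on the opposite strand, so that a short stretch of DNA between them serves as a promoter for both. Broadly active fly promoters often carry the DRE (TATCGATA), which the factor DREF binds and whose CGATA part is recognised by the boundary protein BEAF-32, or Motif 1 (GGTCACAC here), which M1BP binds. Promoters of developmentally regulated genes more often carry a TATA box or GAGA repeats.

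Sequences of 7 of the strongest two-strand peaks are shown because they hold the motifs described further on or, in the rumi/Usp12-46 window, none of those marked. They were read from the RefSeq copy of the assembly, on the plus strand, 5′ to 3′, in dm6 coordinates, and pairs are written with the minus-strand gene first. Capitals mark the DRE and the 6 bases AGTCAC or their complement GTGACT. The first 5 sequences are all the bases between the paired starts, and the other 2 are the 101 bases centred on the summit. The spans were chr3R:27239086-27239162 for CG31064/PolA2, chr3L:21728807-21728931 for CG11247/Polr2H, chr2L:19758616-19758878 for CG10628/Dus3, chr3R:16049422-16049669 for IKKbeta/CG5013, chr3R:10761033-10761309 for MED7/Cap-H2, chr3R:22750746-22750846 for rumi/Usp12-46 and chr3R:15209100-15209200 for Spn88Eb/Mau2.
CG31064/PolA2: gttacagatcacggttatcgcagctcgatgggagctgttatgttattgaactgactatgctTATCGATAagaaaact
CG11247/Polr2H: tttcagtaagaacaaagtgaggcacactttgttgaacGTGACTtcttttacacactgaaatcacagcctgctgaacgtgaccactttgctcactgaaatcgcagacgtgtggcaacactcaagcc
CG10628/Dus3: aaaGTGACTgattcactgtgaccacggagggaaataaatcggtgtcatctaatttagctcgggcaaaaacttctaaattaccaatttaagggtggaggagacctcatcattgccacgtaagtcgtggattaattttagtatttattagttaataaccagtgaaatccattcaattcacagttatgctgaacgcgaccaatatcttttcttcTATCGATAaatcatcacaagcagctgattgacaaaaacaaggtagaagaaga
IKKbeta/CG5013: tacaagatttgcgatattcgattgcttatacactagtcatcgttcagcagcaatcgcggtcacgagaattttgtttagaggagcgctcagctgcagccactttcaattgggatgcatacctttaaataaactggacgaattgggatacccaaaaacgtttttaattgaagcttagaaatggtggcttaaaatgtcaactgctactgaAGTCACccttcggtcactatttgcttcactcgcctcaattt
MED7/Cap-H2: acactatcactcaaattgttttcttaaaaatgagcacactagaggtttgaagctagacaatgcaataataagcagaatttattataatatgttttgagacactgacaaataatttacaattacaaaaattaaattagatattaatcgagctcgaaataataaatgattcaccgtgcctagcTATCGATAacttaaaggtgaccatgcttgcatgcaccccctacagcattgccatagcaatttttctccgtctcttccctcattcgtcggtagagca
rumi/Usp12-46: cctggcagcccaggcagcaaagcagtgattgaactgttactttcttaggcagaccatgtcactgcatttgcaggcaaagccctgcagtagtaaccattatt
Spn88Eb/Mau2: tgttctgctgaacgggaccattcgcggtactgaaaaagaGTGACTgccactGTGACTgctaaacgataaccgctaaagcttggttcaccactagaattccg

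In these spans the summit was base 26 of the CG31064/PolA2 sequence, whose DRE began at base 62. It was base 78 in CG10628/Dus3, 188 in IKKbeta/CG5013 and 146 in MED7/Cap-H2, and in CG11247/Polr2H it was the CG11247 start itself, just outside the first base printed. In both sequences of 101 bases it was base 51. The Spn88Eb/Mau2 window held GTGACT at bases 40 and 52.

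The strongest two-strand peaks stood between genes of varied roles. The highest signal, the peak caller's own measure of enrichment, was 36677 at Herp (FBgn0031950), which acts in clearing misfolded proteins from the endoplasmic reticulum, and r2d2 (FBgn0031951), which encodes a partner of Dicer-2 in RNA interference. This peak ranked 2 in all 3 replicates and in the pooled list, with starts 300 bp apart and the summit 72 bp from the Herp start. CG10628 (FBgn0032818) and Dus3 (FBgn0032819), a tRNA dihydrouridine synthase gene, followed at a pooled rank of 3 and replicate ranks of 3, 5 and 3. IKKbeta (FBgn0024222), a kinase gene of the Imd immune pathway, shared a peak with CG5013 (FBgn0038396), ranked 7 in the pooled list and 8, 10 and 5 in the replicates.

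Several strong pairs held genes of the transcription and chromosome machinery. CG11247 (FBgn0037120) and Polr2H (FBgn0037121), a subunit gene of RNA polymerases, ranked 11 in the pooled list and 14, 13 and 7 in the replicates. Spn88Eb (FBgn0038299), a serpin gene, and Mau2 (FBgn0038300), which encodes a cohesin loader, ranked 12, against 10, 9 and 14 in the replicates. CG31064 (FBgn0051064) and PolA2 (FBgn0005696), a subunit gene of DNA polymerase alpha, ranked 14, against 15, 16 and 15. MED7 (FBgn0051390), of the Mediator complex, and Cap-H2 (FBgn0037831), of condensin II, ranked 16, against 16, 19 and 17. EMC1, of the endoplasmic reticulum membrane complex, and Taf7, of TFIID, ranked 21, and brm, the ATPase of the SWI/SNF remodeller, shared the peak of rank 23 with the Golgi GTPase gene Arl1. In the replicates EMC1/Taf7 ranked 23, 15 and 27, and brm/Arl1 ranked 19, 21 and 34.

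The other pairs among the 20 strongest ranked from 13 to 32 in the pooled list. They were rumi, which encodes a glucosyltransferase that modifies Notch, with the deubiquitinase gene Usp12-46; CG12379 with MagR, an iron-sulphur protein gene; and the Polycomb group gene Sfmbt with CG5439. TM9SF3 stood with mthl2, TppII, a peptidase gene, with ND-MWFE of respiratory complex I, CG9427 with CG8319, and CG11779 with nanos, the posterior patterning gene. The proteoglycan enzyme gene oxt stood with CG13807, CG3281 with the mitotic kinase gene aurA, Not1, the scaffold of the CCR4-NOT deadenylase, with Nt5c, and Rpt2, an ATPase of the proteasome, with CG13599. All 20 summits lay between the paired starts or, at CG11247, on one of them, at spacings of 78 to 811 bp (median 276.5 bp). The lowest position that any of the 20 took was 33 in replicate 1, 34 in replicate 2 and 34 in replicate 3.

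Nearly all of the two-strand peaks were divergent in the strict sense. With the nearest start on each strand taken as the pair, 1230 of 1250 (98.4%) were head-to-head, meaning that the minus-strand start lay at the lower coordinate and both genes were read away from each other. The other 20 peaks, at 18 pairs, had overlapping starts, so that the genes were read into each other over 17 to 394 bp. The strongest of these were at CG16890/Eato, an ABC transporter gene (starts overlapping by 254 bp, pooled rank 284 and replicate ranks 307, 301 and 262), CG15343/CG1636 (pooled rank 568) and Torsin/Cbp80, the nuclear cap-binding subunit gene (pooled rank 609). The median pooled rank of the 20 was 1574, and none of them was among the strongest 250 peaks.

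Peaks, pairs and genes were not the same count. The 1250 peaks formed 1121 distinct pairs with 2234 genes, of which 996 pairs had 1 peak and 125 had 2 or 3. Within 500 bp of the summit 1186 peaks had 2 protein-coding genes, and 64 had 3 or more. A start of a noncoding gene was also within 500 bp at 32 peaks (2.56%). Among the genes of these pairs 659 (29.5%) were known only by a CG number, against 43.7% of all 13945 protein-coding genes.

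The same rule gave close counts in each replicate. Among the 4260 strongest regions, 1254 in replicate 1, 1267 in replicate 2 and 1184 in replicate 3 were two-strand (1235 ± 44.6, SD, n = 3), a share of 29.0% ± 1.05. Replicate 3 was the lowest of the 3. Of the two-strand peaks 1009 (80.7%, 78.4 to 82.8%) overlapped one of the 4260 strongest regions in all 3 replicates, and of the one-strand peaks 1383 (74.2%, 72.2 to 76.1%) did. A total of 21 two-strand peaks had no region at all in some replicate, 6 in replicate 1 and 15 in replicate 3. These included mRpS21/Droj2, at pooled rank 1087, Chd1/Bem46, at pooled rank 2310, and Bub3/Cap-D2, at pooled rank 4123.

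The starts of the pairs were most often 200 to 400 bp apart. The median spacing of the 1230 head-to-head peaks was 282 bp (quartiles 175 and 391 bp), and the replicates gave 278, 284 and 289 bp (284 ± 5.51, SD, n = 3). Spacings of 201 to 300 bp took 28.5% of these peaks and 20.3% of all 2667 annotated head-to-head pairs with starts up to 1000 bp apart. Spacings of 301 to 400 bp took 21.7% and 15%. Pairs over 500 bp apart took 8.46% and 25.2%, but the 500 bp rule itself leaves them little room, since the summit must be near both starts. The shares have unlike units, since a pair with several peaks counts more than once among peaks. An annotated pair was any minus-strand and plus-strand gene in head-to-head position, at their smallest spacing. At 1 to 100 bp there were 188 peaks but 238 annotated pairs with a summit near both starts.

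The narrowest pairs had starts 2 bp apart, at dpa/didum and Zpr1/CG44532, and 6 bp apart, at amx/Dsor1. The gene dpa encodes Mcm4 of the replicative helicase, didum encodes myosin V and Dsor1 encodes the MAP kinase kinase. The dpa/didum summit lay 100 bp from one start and 102 bp from the other, outside the gap between them, and ranked 1002 in the pooled list. The widest were TM9SF3/mthl2 (811 bp), Cortactin/AnxB9 (770 bp) and Pi3K92E/Lrrk (748 bp), where the summits lay 343, 317 and 304 bp from the nearer start. TM9SF3/mthl2 ranked 18 and Cortactin/AnxB9 1011 in the pooled list. The pooled rank of Pi3K92E/Lrrk was 411, while the replicate regions matched to it ranked 147, 139 and 142.

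Of all 2667 annotated pairs, 1216 (45.6%) had a thresholded summit within 500 bp of both starts, and the replicates gave 44.1% ± 1.99 (SD, n = 3). A summit could count for several of these pairs, unlike the pairs of nearest starts counted above. By spacing the share was 55.5% at 1 to 100 bp, 47.6% at 101 to 200 bp, 60.7% at 201 to 300 bp, 60.3% at 301 to 400 bp and 56.2% at 401 to 500 bp. Among these classes 101 to 200 bp was lowest in every replicate, with 46.5%, 44.8% and 41.7%. The class of 201 to 300 bp had 60.7%, 59.6% and 54.8% in replicates 1, 2 and 3, so these 2 classes did not overlap. The class of 1 to 100 bp had 56.6%, 53.4% and 46.4%, and its values did overlap those of 101 to 200 bp. At 501 to 1000 bp 13.1% had a summit near both starts and 46.9% a summit near either start. The wide pairs thus often had a summit near a start but none within 500 bp of both. Pairs with a separate summit at each start were not counted apart.

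**Figure D1:**
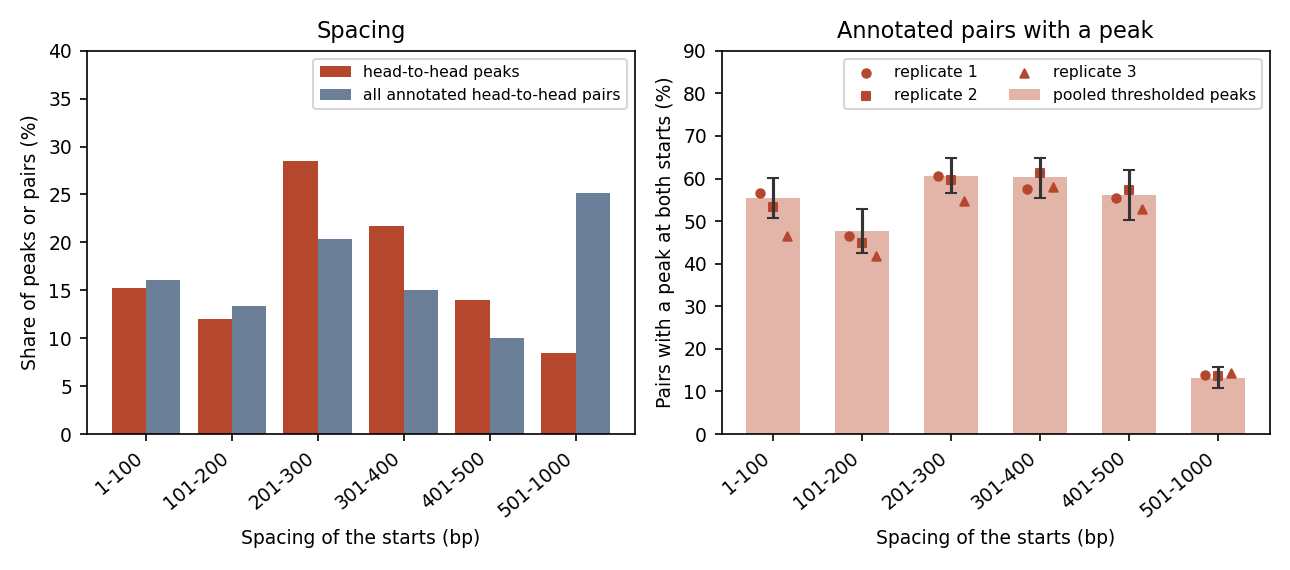
Left, share of head-to-head peaks (red, n = 1230) and of all annotated head-to-head pairs (blue, n = 2667) in each class of spacing between the starts, in bp. Peaks are not pairs, so a pair with several peaks counts more than once in red. Right, percent of annotated pairs with a summit within 500 bp of both starts, where bars are the pooled thresholded peaks, lines their Wilson 95% intervals and points the strongest regions of each replicate; among the classes up to 500 bp, that of 101 to 200 bp is lowest in every replicate.

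Genes with a head-to-head neighbour were bound more often than genes without one. Among all protein-coding genes 3936 of 13945 (28.2%) were bound. The share was 51.4% of the 5052 genes that had a start of another protein-coding gene up to 1000 bp away in head-to-head position (interval 50.01 to 52.8%), and 15.1% of the 8893 genes that had none (14.3 to 15.8%). The shares were 50.6%, 50.9% and 47.7% against 15.2%, 15.01% and 14.1% in replicates 1, 2 and 3, and the difference was 35.0 ± 1.22 percentage points (SD, n = 3). A single summit can count for both genes of a pair, so the comparison was repeated with each summit counted only for its nearest start, a choice made after the data were seen. The shares were then 30.3% of genes with a head-to-head neighbour and 14.7% of genes without one, and the difference was 15.5 ± 0.420 points in the replicates (SD, n = 3). By either count the difference exceeded the replicate SD, which covers only the spread between lists that share most peaks and use the same annotation. The difference fell from 35.0 to 15.5 points when each summit counted once. The exact sign-flip permutation test over 3 replicates can give no two-sided p under 0.25, so no difference here could pass 0.05 by it.

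Summits mostly stood in the space between the starts. In 1031 of 1230 head-to-head peaks (83.8%) the summit lay between the starts, and in the replicates 82.4% ± 1.48 (SD, n = 3) did. The nearer start was a median of 65 bp away and the farther one 211 bp away. In 461 peaks (37.5%) the summit was within 50 bp of the midpoint, and the median distance from it was 69.25 bp. Relative to the nearer start, the median summit lay 59 bp upstream (quartiles 102 and 19.2 bp upstream), and 83.4% lay upstream. In the one-strand peaks the median was 61 bp upstream (158 and 13 bp) and 79.1% lay upstream, and the medians of the 2 classes differed by 2 bp. The wider quartiles of the one-strand peaks follow in part from the rule, since only the two-strand distance is taken to the nearer of 2 starts.

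The place of the summit differed between classes of spacing, and the rule fixes part of this, since a summit outside a wide gap is less often within 500 bp of both starts. At spacings of 1 to 100 bp 47.9% of summits lay between the starts, and the median distance to the nearer start was 25 bp. At 201 to 300 bp 91.2% lay between them, a median of 71 bp from the nearer start, and at 401 to 500 bp 94.8% did, at 81.5 bp. The median distance from the midpoint was 57 bp at 201 to 300 bp and 134.5 bp at 401 to 500 bp. In the 104 peaks at pairs of 501 to 1000 bp the median was 132.8 bp from the midpoint and 155.5 bp from the nearer start, and the rule itself places those summits between the starts. The 199 summits outside the gap lay a median of 32 bp from the nearer start, and 127 of them within 50 bp.

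**Figure D2:**
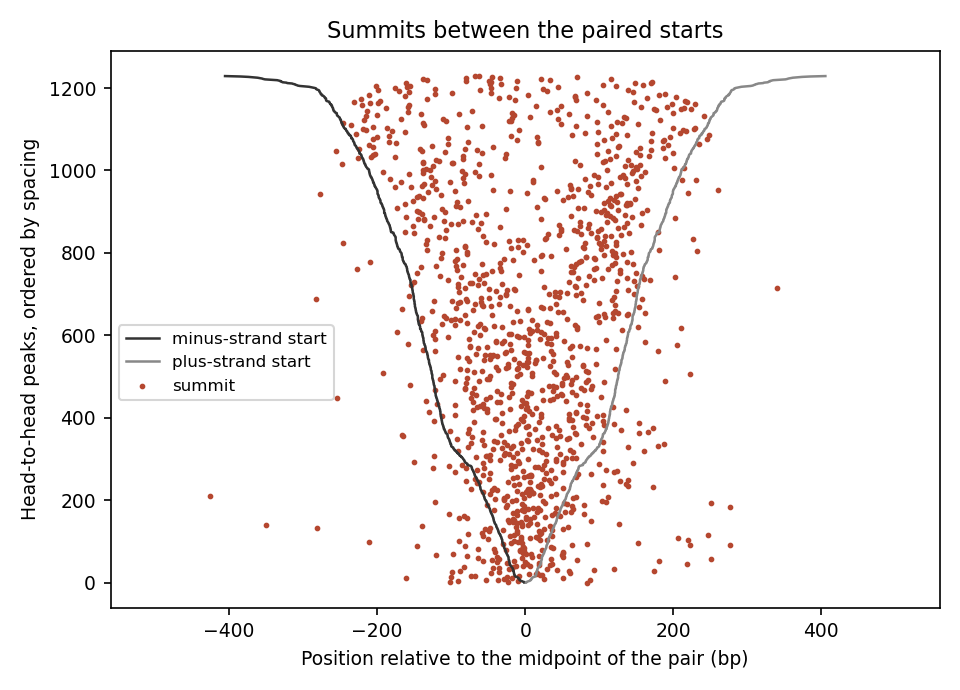
Position of each summit (red points) relative to the midpoint of its pair, in bp, for the 1230 head-to-head peaks ordered by the spacing of the starts, with the minus-strand start (dark line) and the plus-strand start (grey line). A total of 1031 points lie between the lines, and at the widest pairs many points are nearer to the midpoint than to either line.

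The nearer start was on the plus and on the minus strand at close to equal numbers of peaks. The plus-strand start was nearer at 652 peaks and the minus-strand start at 598, and the plus-strand share was 52.2%. In the replicates it was 52.4%, 53.3% and 54.9% (53.5% ± 1.27, SD, n = 3). The replicate lists share most of these peaks, and whether the strands differed was not tested. Which start was nearer repeated best between replicates for strong peaks and for unequal distances. The sonicated fragments were 200 to 800 bp long. Agreement between replicates measures how well summits repeat, and which of 2 close starts was occupied was not tested. Of 1229 peaks with a region in all replicates, 956 (77.8%, 75.4 to 80.02%) had the same nearer start in all 3. Where the 2 distances differed by under 50 bp this share was 49.8%, and where they differed by 200 bp or more it was 95.04%. Among members of the 852 strongest thresholded peaks it was 89.0%, with a median spread of the 3 replicate summits of 20 bp, and among members of the 852 weakest 71.8%, with 70 bp. For pairs with nearly equal distances, the nearer start thus depended on the replicate in about as many peaks as it did not.

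Some pairs had a summit at each start. Of the head-to-head pairs 123 had 2 or more peaks, and in 95 of them the summits were nearer to opposite starts, with a median of 205 bp between them over all 123. Their starts were a median of 334 bp apart, against 263 bp for the pairs with 1 peak. The settings of the peak caller are not known, and whether a least distance between summits shaped these values was not tested. At Meics/ssp2, with starts 501 bp apart, 1 summit lay 139 bp from the Meics start (pooled rank 81; replicate ranks 70, 67 and 79) and the other 114 bp from the ssp2 start (pooled rank 89; replicate ranks 83, 83 and 65). At Plp/GlyRS, where Plp encodes a centrosome protein and GlyRS the glycyl-tRNA synthetase, the summits lay 147 bp from the Plp start (pooled rank 102) and 53 bp from the GlyRS start (pooled rank 115). In replicates 1 and 3 both Plp/GlyRS peaks matched the same region, of rank 100 and 105, so the second summit was separate only in replicate 2.

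Two-strand peaks outnumbered one-strand peaks among the 100 strongest peaks, were close to them in number among the 250 strongest, and were fewer among the 1000 strongest. These are counts of peaks, so a pair or gene with several peaks counts more than once. Two-strand peaks were 13 of the 20 strongest thresholded peaks, 30 of the strongest 50, 53 of the strongest 100, 118 of the strongest 250 (47.2%) and 367 of the strongest 1000 (36.7%), against 29.3% of all. One-strand peaks were 7, 18, 45, 115 and 476 of these, against 1864 of all 4260. Peaks with no protein-coding start nearby were thus few among the strongest, and part of the rise in the two-strand share goes with this. With thresholded peaks ordered by their rank in a replicate, the first 20 and the first 50 ranks held 13 and 30 two-strand peaks in each of the 3. The median pooled rank was 1844 for two-strand and 2046 for one-strand peaks, where a lower rank is a stronger peak. In replicates 1, 2 and 3 the medians were 1826, 1874 and 1884 for two-strand peaks and 2060, 2078 and 2090 for one-strand peaks. The difference was -214.8 ± 17.1 ranks (SD, n = 3), with the same sign in 3 of 3 replicates, and the exact two-sided sign-flip permutation p was 0.25, the smallest that 3 replicates allow. Among peaks found in the strongest regions of all 3 replicates the difference was -25.0 ranks. The classes overlapped widely, with pooled quartiles at ranks 814 and 2926 for two-strand peaks and 968 and 3093 for one-strand peaks.

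**Figure D3:**
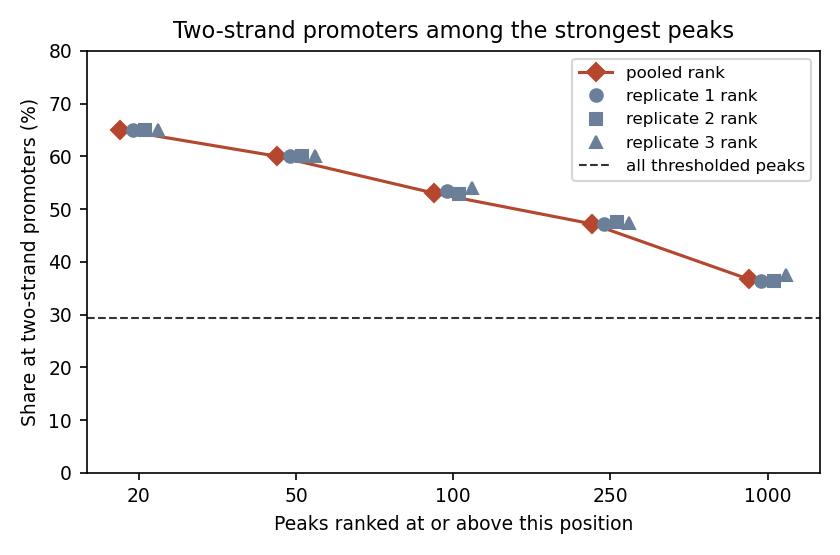
Percent of thresholded peaks at two-strand promoters among those ranked at or above each position on the horizontal axis, by rank in the pooled list (red) and in each replicate list (blue). The share is 65.0% for the first 20 and 36.7% for the first 1000 by pooled rank, and the dashed line marks the 29.3% of all thresholded peaks.

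Within the two-strand peaks the order by strength was similar between replicates, with Spearman correlations of rank of 0.867, 0.813 and 0.808 over the 1250 peaks for replicates 1 and 2, 1 and 3, and 2 and 3. These are descriptions over peaks that had been thresholded on all 3 libraries. A few peaks with a region in all replicates went far apart. At Blm/CG14722, where Blm encodes a RecQ helicase, the ranks were 2143, 24061 and 3786. Rich/Ddx1, where Ddx1 encodes an RNA helicase, had 24010, 3319 and 2081, and capt/Tango14 had 28157, 3269 and 7227, where capt encodes the actin-binding cyclase-associated protein. Their pooled ranks were 2484, 3666 and 3917.

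Peaks close to the 500 bp limit were both strong and weak. Just inside it, 9 peaks had their farther start at 491 to 499 bp, among them CG3309/XRCC1, a DNA repair gene (496 bp, pooled rank 58), CG10804/CG10802 (492 bp, rank 75) and CG3735/Taldo (499 bp, rank 3438). Just outside it, 10 peaks had it at 502 to 510 bp, among them RagA-B/CG11970 (502 bp, rank 3409) and CCHa1-R/eIF3c (507 bp, rank 26).

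Two-strand peaks were spread over all chromosome arms. They were 32.7% of the thresholded peaks on 2L, 28.9% on 2R, 28.7% on 3L, 33.1% on 3R and 23.2% on X (interval 20.3 to 26.4%), and 23.4% ± 1.09 in the replicates on X (SD, n = 3). On chromosome 4 they were 7 of 54 (13.0%, 6.42 to 24.4%), led by Tdg/Pur-alpha, a DNA glycosylase gene and a nucleic acid binding protein gene (pooled rank 1013). The share of annotated head-to-head pairs that were bound at both starts was 54.0% on 3R and between 40.9% and 45.5% on the other arms. At a cluster of starts 1 peak can count for several such pairs. On 3R 369 pairs were bound and 347 peaks were two-strand, while every other arm had fewer bound pairs than two-strand peaks. How far this counting raised the share on 3R was not tested.

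Genes for basic cell functions were spread over the pairs. Lists were taken by gene symbol. Their bound counts stand beside the 28.2% of all protein-coding genes that were bound, and their two-strand counts beside the 58.7% of all bound genes that were bound by a two-strand peak. Among cytosolic ribosomal protein genes 75 of 86 were bound, 33 of them (44.0%) by a two-strand peak. Strong examples were RpS27/Nup37 (signal 846.3, pooled rank 469, replicate ranks 520, 483 and 452), CG12929/RpL31 (rank 526) and RpL28/eIF1 (rank 546). Among mitochondrial ribosomal protein genes 42 of 73 were bound, 33 of them (78.6%) by a two-strand peak. Strong examples were PIG-N/mRpL42 (signal 3757, pooled rank 185, replicate ranks 185, 197 and 185) and mRpS23/CenG1A (rank 197). The 2 kinds of ribosomal gene differed also in the annotation alone, with a head-to-head neighbour at 61.6% of cytosolic and 79.5% of mitochondrial ribosomal protein genes.

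The two-strand share was 58.5% for the respiratory chain and ATP synthase and above 58.7% for the other lists below. These ran from 59.3% for translation factors to 81.8% for nuclear pore genes. In the annotation, 50.6 to 82.6% of the genes in these lists had a head-to-head neighbour, against 36.2% of all protein-coding genes. By a two-strand peak were bound 24 of 41 bound genes of the respiratory chain and ATP synthase, 16 of 22 of the proteasome, 16 of 27 for translation factors and 12 of 15 for tRNA synthetases. The same held for 10 of 16 bound Mediator genes, 13 of 16 RNA polymerase subunit genes, 11 of 16 DNA replication genes and 9 of 11 nuclear pore genes. Lists taken by symbol can miss genes that carry other names. Within these lists, the strongest peaks behind those already named were Sec3/COX7B of respiratory complex IV (rank 196), kat80/Prosalpha4 (rank 170) and Prosalpha7/CG1671 (rank 180) of the proteasome core, and eIF3m/CG8323 (rank 144). They also included ArgRS/CG8578 (rank 265), MED30/Rev1 (rank 409), Polr3F/PyK (rank 288), Psf1/Sac1 (rank 493), where Psf1 encodes a GINS subunit, and wfs1/Nup133 (rank 109). In these lists 1 pair had both genes in the same list, RPA1/Mcm2, a single-stranded DNA binding subunit gene and a helicase subunit gene, with starts 519 bp apart (pooled rank 1386, replicate ranks 1996, 1085 and 1116). The lists hold only 23 to 89 genes each, and such pairs were not counted in the annotation.

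Promoter motifs were counted in the 101 bases around each summit, on both strands, beside the same count in 101 bases centred 60 bp upstream of every protein-coding start (19253 windows) and at the midpoints of the 1151 head-to-head pairs with no summit near either start. The DRE was in 9.44% of two-strand windows (7.94 to 11.2%), 8.96% of one-strand windows, 4.61% of all promoter windows and 3.65% of unbound midpoints. Motif 1 was in 4.80%, 4.40%, 2.29% and 2.52% of these. The part CGATA, which lies within TATCGATA on either strand, was in 38.2%, 34.8%, 25.3% and 21.7%. In the replicates the DRE was in 9.71% ± 0.132 of two-strand and 8.603% ± 0.680 of one-strand windows (SD, n = 3), a difference of 1.11 ± 0.592 points (exact two-sided sign-flip permutation p = 0.25, the smallest possible). The 6 palindromic bases ATCGAT inside the DRE were in 21.4% of two-strand and 19.7% of one-strand windows, against 12.01% of all promoter windows.

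The TATA letters TATAAA and the GAGA repeat GAGAGAG went other ways. TATAAA was in 19.1% of two-strand and 13.1% of one-strand windows, and in 19.1% of all promoter windows and 22.6% of unbound midpoints. In the replicates it was in 18.3% ± 1.06 and 13.5% ± 0.408 (SD, n = 3; exact permutation p = 0.25). GAGAGAG was in 0.320% of two-strand windows, 1.13% of one-strand windows, 3.84% of all promoter windows and 2.26% of unbound midpoints. CAGCTG was in 6.4%, 6.22%, 7.14% and 7.99%, and CAGGTAG, which the early embryonic activator Zelda binds, was in 0.640%, 0.268%, 0.680% and 0.521%. The windows around summits sit at different distances from starts than those fixed at 60 bp, and whether this moves the shares was not tested.

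The letters AGTCAC were noticed in the strongest windows and counted afterwards, so their shares by peak strength are a description. AGTCAC shares GTCAC with Motif 1 but cannot be part of GGTCACAC. It was in 7.76% of all two-strand windows, 10.03% of one-strand windows, 14.9% of windows at thresholded peaks with no protein-coding start within 500 bp, 3.698% of all promoter windows and 4.26% of unbound midpoints. With two-strand peaks divided by signal into 4 classes of equal size, it was in 20.1% (63 of 313; 16.1 to 24.9%) of the strongest class and in 4.79%, 3.85% and 2.24% of the next. The replicates gave 20.2% ± 1.28, 6.15% ± 0.648, 3.13% ± 0.660 and 2.93% ± 0.607 (SD, n = 3) for the classes from strongest to weakest. Because the letters were picked from the strongest windows, and the replicate lists share most of these peaks, neither set of values is independent support. In the one-strand peaks the classes had 21.0%, 6.87%, 6.22% and 6.01%. The DRE had a flatter course over the two-strand classes, with 11.8%, 9.27%, 8.01% and 8.65%, and Motif 1 had 4.15%, 4.47%, 5.13% and 5.45%.

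**Figure D4:**
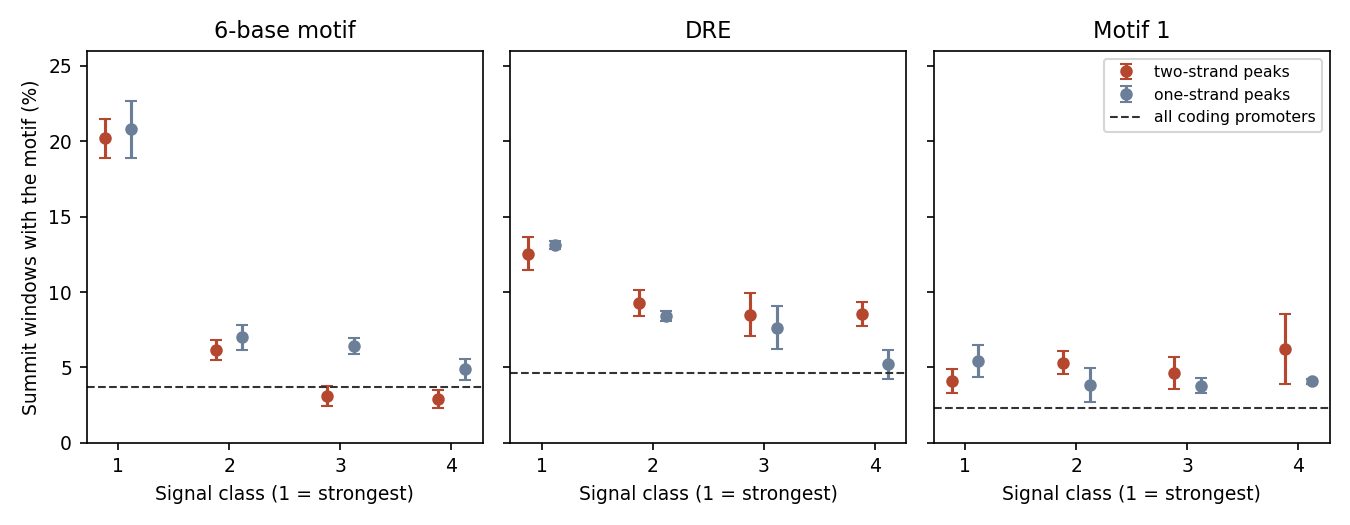
Percent of 101-base summit windows with a motif in each of 4 equal classes of peaks by signal, from the strongest (1) to the weakest (4), for two-strand (red) and one-strand (blue) peaks; points are means over the 3 replicates and bars ± 1 SD. The left panel is the 6-base motif AGTCAC, which is at 20.2% in the strongest two-strand class and at 2.93% in the weakest, and the dashed lines are all protein-coding promoter windows.

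The 5 bases GTCAC, which are part of both AGTCAC and Motif 1, were in 40 of the 60 strongest two-strand windows (66.7%), 39 of the 60 strongest one-strand windows, 25.1% of all two-strand windows and 13.6% of all promoter windows. There were 2 or more copies in 14 of the 60 strongest two-strand windows (23.3%) and 13 of the 60 strongest one-strand windows (21.7%), against 4.32% of all two-strand windows and 1.18% of all promoter windows. Among the sequences printed above, the IKKbeta/CG5013 span held 3 copies on either strand, CG11247/Polr2H, CG10628/Dus3 and Spn88Eb/Mau2 held 2 each, and CG31064/PolA2 held 0.

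Over the whole gap between the starts, the motifs had different places. A DRE lay between the starts of 278 of 1230 head-to-head peaks (22.6%), a median of 32 bp from the nearer start and 79 bp from the summit. Motif 1 lay there in 126 (10.2%), at 35 and 96.5 bp. AGTCAC lay there in 150 (12.2%), at 64.5 bp from the nearer start and 47 bp from the summit. The start nearer to the DRE was also the start nearer to the summit in 150 of 278 cases (54.0%), and for AGTCAC in 106 of 150 (70.7%). The AGTCAC letters were found in windows around summits to begin with, so their closeness to summits is in part given by that choice. The CG31064/PolA2 and MED7/Cap-H2 sequences show DRE sites on the plus-strand gene's side of the summit.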

How the data were processed

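The deposited files were peak lists on dm6: 1 per replicate (30000, 28051 and 24171 regions with peaks and background), 1 from pooled replicates (27868) and 1 thresholded list from the irreproducible discovery rate procedure (4260 peaks, all of them the strongest of the pooled list). Each region carried the authors' signal value, the peak caller's measure against a control file, with a scale that differs between lists and no stated unit, so signal was used within a list and ranks between lists. No line was shared between replicate lists. Aligner, caller, versions and threshold are not given in the sources used here, and the depth of each library was unknown. Summits, taken as start plus offset, are the authors' own, and lists on dm3 were not used.

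Protein-coding starts (19607, of 13945 genes on the 6 arms of chromosomes X, 2, 3 and 4) came from Ensembl release 115. Sequence came from RefSeq's assembly, with the same arm lengths. Each thresholded peak was matched to the replicate region with the nearest summit among those overlapping it by at least 1 bp; a peak with no match took a rank 1 past the list's end. Replicate values used the 4260 strongest regions of each list. Shares carry Wilson 95% intervals, which cover counting error only. Differences over the 3 replicates used exact two-sided sign-flip permutation tests. Peaks and genes are not replicates, so no test was run over them. The assignment was tested on simulated starts (Python 3.11.15, pandas 2.3.3, scipy 1.17.1).

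Genes named were those at the 20 strongest members, the strongest member on chromosome 4, the 3 narrowest, widest and strongest overlapping pairs, up to 4 strongest of each list, and members at the 500 bp limit. Also named were the 3 with the largest disagreement in rank among members with a region in all replicates. The peaks at mRpS21/Droj2, Bub3/Cap-D2, Chd1/Bem46 and Meics/ssp2 and the second Plp/GlyRS peak were chosen after their values were seen. The members, the lists and the motifs were chosen with earlier results of these data known, and the motifs AGTCAC and GTCAC, the inner DRE letters, 1 line per pair and the nearest-start count after seeing the data. A few members that the naming rule picks are not reported here.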

Additional observations from a re-analysis of the deposited data

How the results depend on the processing

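No paired analysis was possible because all samples belong to 1 group. In the 11 alternatives the rank difference kept its sign, from -25.0 to -342.0 ranks. At a promoter distance of 200 bp there were 579 two-strand peaks, 571 head-to-head and 454 with the summit between, with a spacing of 170 bp, a bound-share difference of 28.3 points and DRE or Motif 1 in 13.3% of windows, against 1250, 1230, 1031, 282 bp, 36.3 points and 14.0%. At 1000 bp the spacing was 316.5 bp and the difference 38.7 points, and with 1 start per gene 273 bp and 35.0 points. The stronger 2130 peaks had 718, 707 and 594 peaks, 22.7 points and 13.5%. One summit per merged region gave 272 bp and 14.5%, and 1 line per pair 272 bp and 14.5%. Peaks in all replicates gave 288 bp and 29.5 points. Without 1 replicate the spacing was 284 to 289 bp and the difference 30.6 to 32.0 points. Head-to-head within 500 bp gave 40.5 points, and each summit counted for its nearest start 15.6. Windows of 100 bp to each side held DRE or Motif 1 in 24.7%, and CGATA or Motif 1 stood in 41.2% of the main windows. Dropping peaks lowers counts and shares by construction. With 3 replicates, no library depth and no control library, neither a p under 0.25 nor the recovery of open promoters without the tag could be measured.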
